A study of Homo sapiens with 8 samples.

Results

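The genes described here are 8 transcription factors grouped as factors of the Müllerian and renal lineages: PAX8, SOX17, EMX2, LHX1, HNF4A, HNF4G, MECOM and WT1. The rule lists them by name and uses no measured value, but the list was drawn up with earlier results of these data known. Their rows were read from a table of 57736 Ensembl IDs counted by RNA-seq in 8 libraries. An ID was matched for 7 of the 8 genes. Of these, 5 (PAX8, SOX17, EMX2, HNF4G and MECOM) passed the filter on low counts, while HNF4A and WT1 did not. LHX1, a LIM homeodomain factor, was not analysed here.

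All libraries came from RMG1, an established human line of ovarian clear cell carcinoma, and there were 4 groups of 2 libraries. The ARID1A knockout (made with CRISPR, CAPH2 wild type) was compared with unmodified RMG1 cells that were wild type for ARID1A and CAPH2. The CAPH2 knockdown (an shRNA against CAPH2, ARID1A wild type) was compared with cells that carried a control shRNA and were wild type for both genes. The protein ARID1A belongs to the chromatin remodeller SWI/SNF, and CAPH2 is encoded by NCAPH2 and works in condensin II, which folds chromosomes. The labels do not say whether the knockout was a single clone, or whether replicate libraries were made from cultures grown apart, and the p-values then reflect library-to-library spread that may be technical.

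The Müllerian ducts, which give rise to the oviduct, uterus and upper vagina, and the ducts of the kidney both grow out of the intermediate mesoderm and use many of the same factors. PAX8 is a paired box factor of the kidney, thyroid and Müllerian epithelium, and pathologists stain for it to recognise tumours of ovary and kidney. SOX17 is an endodermal and Müllerian factor of the SRY-related family, EMX2 is a homeodomain factor needed for the urogenital tract in mice, and HNF4A and HNF4G are nuclear receptors of liver, gut and kidney tubule. MECOM encodes the zinc finger protein EVI1 and its longer PR domain form, and WT1 is a zinc finger factor of the gonad, mesothelium and kidney podocyte.

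Total counts ranged from 24559547 to 37378691 per library, and the median log2 fold change of the 16657 genes tested was close to 0 in each comparison. ARID1A averaged 6.14 ± 0.739 CPM (counts scaled by library size and TMM; mean ± SD, n = 2) in knockout and 10.4 ± 2.33 CPM in wild-type cells, and NCAPH2 averaged 8.86 ± 0.174 CPM in knockdown and 24.9 ± 1.24 CPM in control shRNA cells. NCAPH2 was also called lower in the ARID1A knockout, at 22.4 ± 2.05 CPM against 28.4 ± 2.27 CPM in wild-type cells (log2 fold change −0.34, edgeR adjusted p = 0.0144). Leaving out wild-type replicate 2 (−0.26) or knockout replicate 1 (−0.25) ended that call. A gene was called changed at a Benjamini-Hochberg adjusted p under 0.05 in edgeR's quasi-likelihood test, adjusted over all genes tested. Markers of epithelium, all 7 of them detected, summed to 2830 to 2890 CPM in knockout and 3040 to 3390 in wild-type libraries. They summed to 3110 to 3210 in knockdown and 3140 to 3150 in control shRNA libraries. In the knockout EPCAM and CDH1 were called higher and KRT8, KRT19, KRT7 and MUC1 lower. Their median log2 fold change was −0.52, in a comparison with 34.5% of all genes called. In the knockdown 0 of the 7 were called, beside 15.8% of all genes. The 6 matched markers of ovarian clear cell carcinoma summed to 1070 to 1120 CPM in knockout, 2490 to 2700 in wild-type, 3980 to 4060 in knockdown and 3160 to 3190 in control shRNA libraries. SPP1 made up most of that sum (3220 ± 31.8 CPM in knockdown and 2347 ± 22.7 CPM in control shRNA cells). All 6 were called lower in the knockout, beside 17.8% of all genes called lower there. In the knockdown 2 were called higher and 2, FXYD2 and CDH6, lower, beside 15.8% of all genes called. The median of the 6 in the knockdown was −0.02.

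PAX8, EMX2 and MECOM are shown with the bases just before a transcription start, since PAX8 and EMX2 moved together in the knockdown and MECOM was the gene called higher in both perturbations. Each sequence is the 250 bases before a start site, from RefSeq on GRCh38.p14, read 5′ to 3′ on the gene's own strand, and capitals mark matches, on either strand, to the CCAAT box, to the GC box motif GGGCGG and to the homeodomain core motif TAATTA.
PAX8, chr2:113278922-113279171, minus strand: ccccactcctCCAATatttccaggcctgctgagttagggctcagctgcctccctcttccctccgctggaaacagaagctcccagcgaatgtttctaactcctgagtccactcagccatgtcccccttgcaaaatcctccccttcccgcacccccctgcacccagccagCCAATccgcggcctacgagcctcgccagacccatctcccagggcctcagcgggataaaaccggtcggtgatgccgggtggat
EMX2, chr10:117542496-117542745, plus strand: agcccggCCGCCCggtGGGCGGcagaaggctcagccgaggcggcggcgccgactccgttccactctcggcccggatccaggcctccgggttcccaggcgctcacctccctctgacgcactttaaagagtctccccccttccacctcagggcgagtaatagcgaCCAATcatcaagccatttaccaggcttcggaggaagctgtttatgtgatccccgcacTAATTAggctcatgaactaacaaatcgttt
MECOM, the first of 3 start sites in the table, chr3:169663713-169663962, minus strand: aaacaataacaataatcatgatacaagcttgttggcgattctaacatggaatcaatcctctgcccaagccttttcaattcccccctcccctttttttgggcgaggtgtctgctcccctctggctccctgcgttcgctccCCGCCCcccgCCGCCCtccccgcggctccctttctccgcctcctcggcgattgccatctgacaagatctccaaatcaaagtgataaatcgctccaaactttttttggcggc

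PAX8 carried CCAAT boxes 240 and 82 bases before its start, and EMX2 carried one 87 bases before its own, a motif found in 34.6% of all 35116 windows of 300 bases in the table. The homeodomain core lay 30 bases before the EMX2 start and occurs in 4.84% of windows. GC boxes, present in 45.0% of windows, were found at 2 places in EMX2 and at 2 in this MECOM window, and in none of the PAX8 window. The search also covered, on both strands, the TATA box motif TATAAA (in 11.5% of windows), the AP-1 site motif TGANTCA (7.71%), the zinc finger site motif GCGGGGGCG of the EGR factors and WT1 (5.07%), the HNF4 site motif CAAAGTCCA (0.384%) and the E box motif CACGTG (7.26%), with no match in these 3 windows. The gene counts do not separate the start sites of MECOM. A match is a description of the letters and was not tested as a binding site.

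Between ARID1A-knockout and wild-type cells, HNF4G, EMX2 and MECOM were higher and SOX17 was lower, whereas PAX8, the most abundant of the 5, did not pass the test. That is 4 of the 5 tested genes called, 3 higher and 1 lower, in a comparison in which 34.5% of all genes tested were called (16.8% higher and 17.8% lower). The median log2 fold change over the 5 was 0.80, beside a median over all genes that rounds to 0.00.

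**Figure D1:**
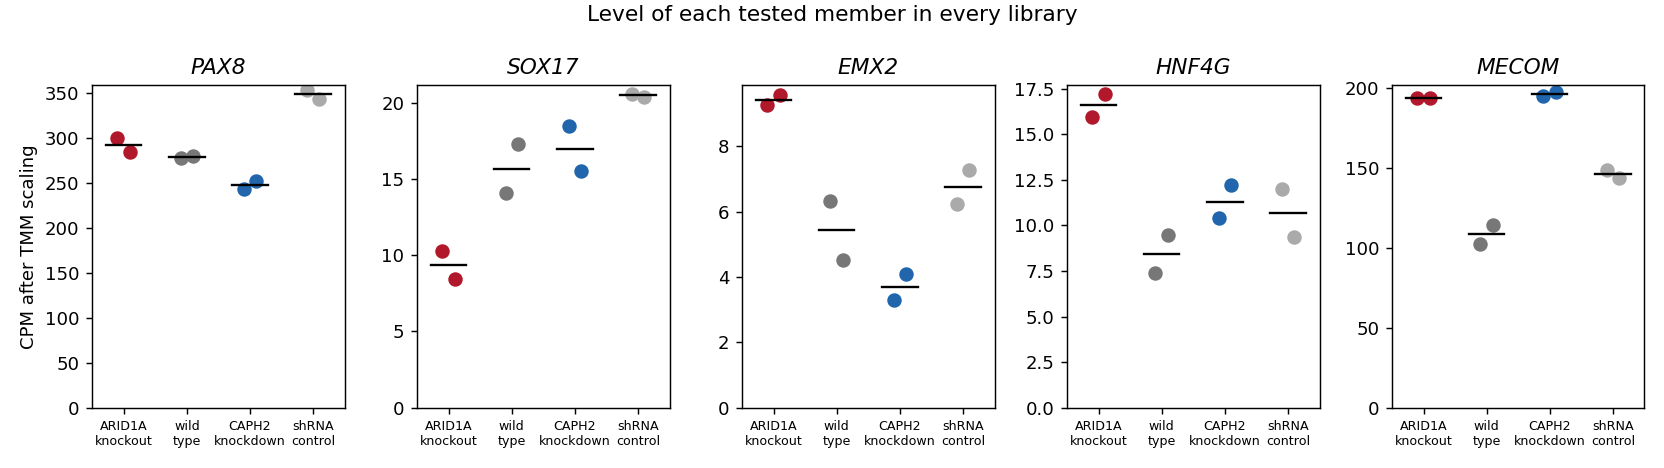
Each panel shows a transcription factor that passed the filter, with CPM after TMM scaling on the y axis from 0; points are the 2 libraries of a group and lines their means. SOX17 was lowest in the knockout (8.41 to 10.3 CPM), HNF4G and EMX2 highest there, and the 2 knockdown libraries of PAX8 (243.6 and 251.9 CPM) were the lowest of the 8.

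PAX8 (ENSG00000125618, chromosome 2) had 300.1 and 284.2 CPM in the knockout libraries, against 278.0 and 279.8 CPM in the wild-type libraries. The knockout values lay just above the wild-type ones, and the difference missed the threshold (log2 fold change 0.07, SE 0.052, edgeR adjusted p = 0.363). Set against the control shRNA cells, which were higher than wild type, the sign turned: the knockout was then lower (log2 fold change −0.26, SE 0.0518, edgeR adjusted p = 0.00213), in a contrast with 41.8% of genes called that was added after seeing the data. PAX8 in the knockout thus had no direction that held against both control groups.

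SOX17 (ENSG00000164736) had 10.3 and 8.41 CPM in the knockout libraries and 14.1 and 17.3 CPM in the wild-type libraries. Both knockout values lay below all 6 other libraries. The log2 fold change was −0.75 (SE 0.137, edgeR adjusted p = 0.00131), and −1.13 against control shRNA cells (edgeR adjusted p = 3.93e-05). SOX17 in the oviduct and endometrium is a factor of the secretory epithelium and a partner of PAX8 in ovarian tumour cells.

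EMX2 (ENSG00000170370, chromosome 10) had 9.26 and 9.56 CPM in the knockout libraries, against 6.32 and 4.53 CPM in the wild-type libraries. The groups did not overlap, and the knockout held the highest values of all 4 groups. The log2 fold change was 0.80 (SE 0.18, edgeR adjusted p = 0.005) against wild type and 0.48 (edgeR adjusted p = 0.0441) against control shRNA cells. Its closest paralog EMX1, the other homeodomain gene of the pair, moved the other way, with 0.822 and 0.705 CPM in knockout and 2.31 and 2.43 CPM in wild-type libraries (−1.63, edgeR adjusted p = 0.00189).

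HNF4G (ENSG00000164749) had 15.9 and 17.2 CPM in the knockout libraries and 7.40 and 9.49 CPM in the wild-type libraries. The knockout libraries were above the 6 others. Its log2 fold change of 0.97 (SE 0.153, edgeR adjusted p = 0.000471) was the largest rise of the 5, and it stayed called against control shRNA cells (0.64, edgeR adjusted p = 0.00462).

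MECOM (ENSG00000085276, chromosome 3) had 193.9 and 194.2 CPM in the knockout libraries, against 102.8 and 114.6 CPM in the wild-type libraries. EVI1 and its long form are repressors and activators known from blood stem cells and from the amplified 3q region of ovarian cancers. The rise was 0.84 (SE 0.0607, edgeR adjusted p = 1.06e-06), and 0.41 (edgeR adjusted p = 0.000216) against control shRNA cells, whose own level was higher than that of wild type.

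In the CAPH2 knockdown PAX8 and EMX2 were lower and MECOM was higher than in control shRNA cells, while SOX17 and HNF4G did not pass the test. These 3 of 5 calls, 1 higher and 2 lower, stand beside 15.8% of all genes called in that comparison (7.62% higher and 8.22% lower). PAX8 had 243.6 and 251.9 CPM in the knockdown libraries, against 353.6 and 343.6 CPM in the control shRNA libraries, a fall of 0.49 on the log2 scale (SE 0.0521, edgeR adjusted p = 6.1e-05). EMX2 had 3.31 and 4.09 CPM in knockdown and 6.22 and 7.26 CPM in control shRNA libraries, with a log2 fold change of −0.87 (SE 0.187, edgeR adjusted p = 0.00832). The EMX2 call was lost without control shRNA replicate 2 (−0.75, edgeR adjusted p = 0.0779) and without knockdown replicate 1 (−0.73, edgeR adjusted p = 0.0767).

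MECOM had 195.1 and 197.4 CPM in the knockdown libraries, against 149.0 and 143.6 CPM in the control shRNA libraries (0.42, SE 0.0599, edgeR adjusted p = 0.000522). Knockdown and knockout cells thus stood at nearly the same MECOM level, above 2 different control levels. SOX17 had 18.5 and 15.5 CPM in knockdown and 20.6 and 20.4 CPM in control shRNA libraries, which did not overlap but missed the threshold (−0.27, SE 0.128, edgeR adjusted p = 0.197). HNF4G had 10.4 and 12.2 CPM in knockdown and 12.01 and 9.36 CPM in control shRNA libraries, and these ranges overlapped (0.08, SE 0.151, edgeR adjusted p = 0.779).

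**Figure D2:**
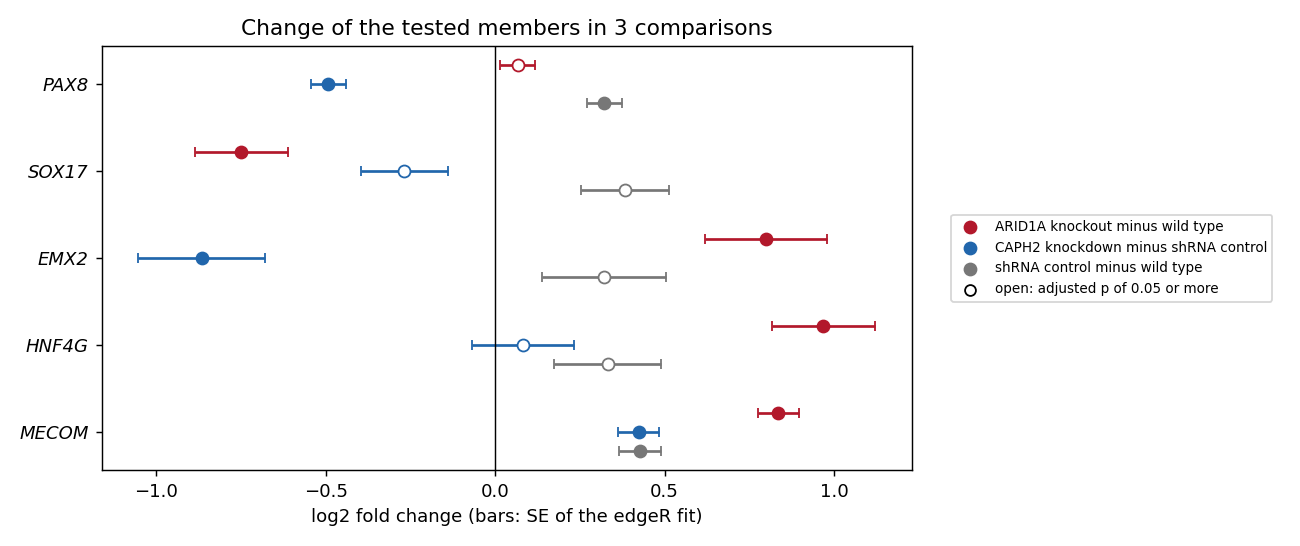
The x axis gives the log2 fold change of the 5 tested transcription factors (rows) in the knockout against wild type, the knockdown against control shRNA and the control shRNA against wild type, with bars for the SE of the edgeR fit and filled symbols for adjusted p under 0.05. EMX2 lies at 0.80 in the knockout and −0.87 in the knockdown, and MECOM is to the right of 0 in all 3 comparisons.

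The change in the knockout and the change in the knockdown were then compared directly, as the difference of the log2 fold changes. EMX2 differed most, by 1.67 (edgeR adjusted p = 0.000607), followed by HNF4G (0.89, edgeR adjusted p = 0.0102), PAX8 (0.56, edgeR adjusted p = 0.000175) and MECOM (0.41, edgeR adjusted p = 0.0039). These 4 of 5 genes passed, beside 26.3% of all genes tested. For SOX17, called in the knockout and not in the knockdown, the difference of −0.48 did not pass (edgeR adjusted p = 0.0831), so its changes in the 2 perturbations are not shown to differ; it passed without wild-type replicate 1 (−0.62, edgeR adjusted p = 0.0223) and with no filter on low counts. The HNF4G difference was lost without control shRNA replicate 1 (0.70, edgeR adjusted p = 0.0533).

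The control shRNA cells themselves differed from wild-type cells in 2 of the 5 genes, in a comparison with 19.2% of all genes called (9.13% higher and 10.1% lower). PAX8 was higher by 0.32 (edgeR adjusted p = 0.00149) and MECOM by 0.43 (edgeR adjusted p = 0.000685). EMX2 (0.32), SOX17 (0.38) and HNF4G (0.33) were higher by similar amounts but did not pass, which does not show that their baselines are equal. Both perturbation comparisons are therefore set against baselines that were called unequal for PAX8 and MECOM. The shRNA vector and the handling of the cells cannot be told apart in that difference.

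HNF4A and WT1 were near or at 0 in this line. HNF4A (ENSG00000101076, chromosome 20) had 0 and 3 counts in the knockout, 3 and 2 in wild type, 8 and 3 in the knockdown and 1 and 0 in control shRNA libraries. Over the groups the knockdown to control shRNA ratio was 11.95, with an exact 95% counting interval of 1.74 to 514.2, and the knockout to wild-type ratio was 0.416 (0.0646 to 2.14). Such low counts bar any statement on its direction in the knockout at this depth. In the knockdown 8 of the counts came from replicate 1. The interval leaves out the spread between libraries, so no direction is stated there either. WT1 (ENSG00000184937, chromosome 11) had 2 counts in control shRNA replicate 1 and 0 in the 7 other libraries. A count of 0 over a group allows up to 0.0401 CPM in knockout, 0.0579 in wild-type and 0.0478 in knockdown cells (3 counts; counting error only).

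Levels of different genes were set side by side per kilobase of the longest GENCODE 29 transcript. PAX8 came first in every group, at 70.4 CPM per kilobase in the knockout, 67.2 in wild type, 59.7 in the knockdown and 84.0 in control shRNA cells. MECOM came second, at 33.9, 19.0, 34.2 and 25.5 CPM per kilobase in the same order of groups. By group means SOX17 came next at 3.99, 6.69, 7.26 and 8.74, ahead of HNF4G at 3.94, 2.01, 2.68 and 2.54 and EMX2 at 3.25, 1.87, 1.28 and 2.33 CPM per kilobase. In the knockout SOX17 and HNF4G could not be ranked, since their libraries overlapped (4.39 and 3.59 against 3.79 and 4.09 CPM per kilobase). HNF4G and EMX2 could not be ranked in wild-type cells (1.76 and 2.25 against 2.18 and 1.56) or in control shRNA cells (2.85 and 2.22 against 2.15 and 2.51). In the other 3 groups every SOX17 library lay above every HNF4G library.

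The genes beside the 5 factors were read off in GENCODE order. Both neighbours of HNF4G on chromosome 8, the long noncoding RNA genes CASC9 and LINC01109, were higher in the knockout. CASC9 averaged 3.85 CPM in knockout and 0.830 CPM in wild-type cells (2.23, edgeR adjusted p = 0.000214), and LINC01109 averaged 11.1 and 1.37 CPM in the same groups (3.01, edgeR adjusted p = 1.39e-07). Of the 20 tested genes around HNF4G, 10 were called higher and 0 lower, beside 16.8% and 17.8% of all genes tested, with a median of 0.41, so that HNF4G stood 0.56 (log2) above its surroundings. The part of the surroundings in the change of HNF4G was not tested.

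SOX17, on the same chromosome, fell while its neighbour RP1, a photoreceptor microtubule gene, rose to 5.98 CPM in knockout against 0.127 CPM in wild-type cells (5.44, edgeR adjusted p = 1.34e-05). XKR4, the next gene after RP1, rose as well (5.77). MRPL15 on the other side of SOX17 did not pass (−0.19). Of the 20 tested genes around SOX17, 8 were called higher and 1 lower in the knockout, beside 16.8% and 17.8% of all genes tested. The window median was 0.12, and SOX17 stood 0.87 below it. Around EMX2, 11 of 20 neighbours were called lower and 2 higher in the knockout, with a median of −0.27, and EMX2 stood 1.06 above that. MECOM stood 0.53 above a window median of 0.30, and PAX8 0.11 above one of −0.05. In the knockdown all 5 window medians lay between −0.20 and 0.03, and EMX2, PAX8 and MECOM stood −0.89, −0.45 and 0.40 from theirs.

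**Figure D3:**
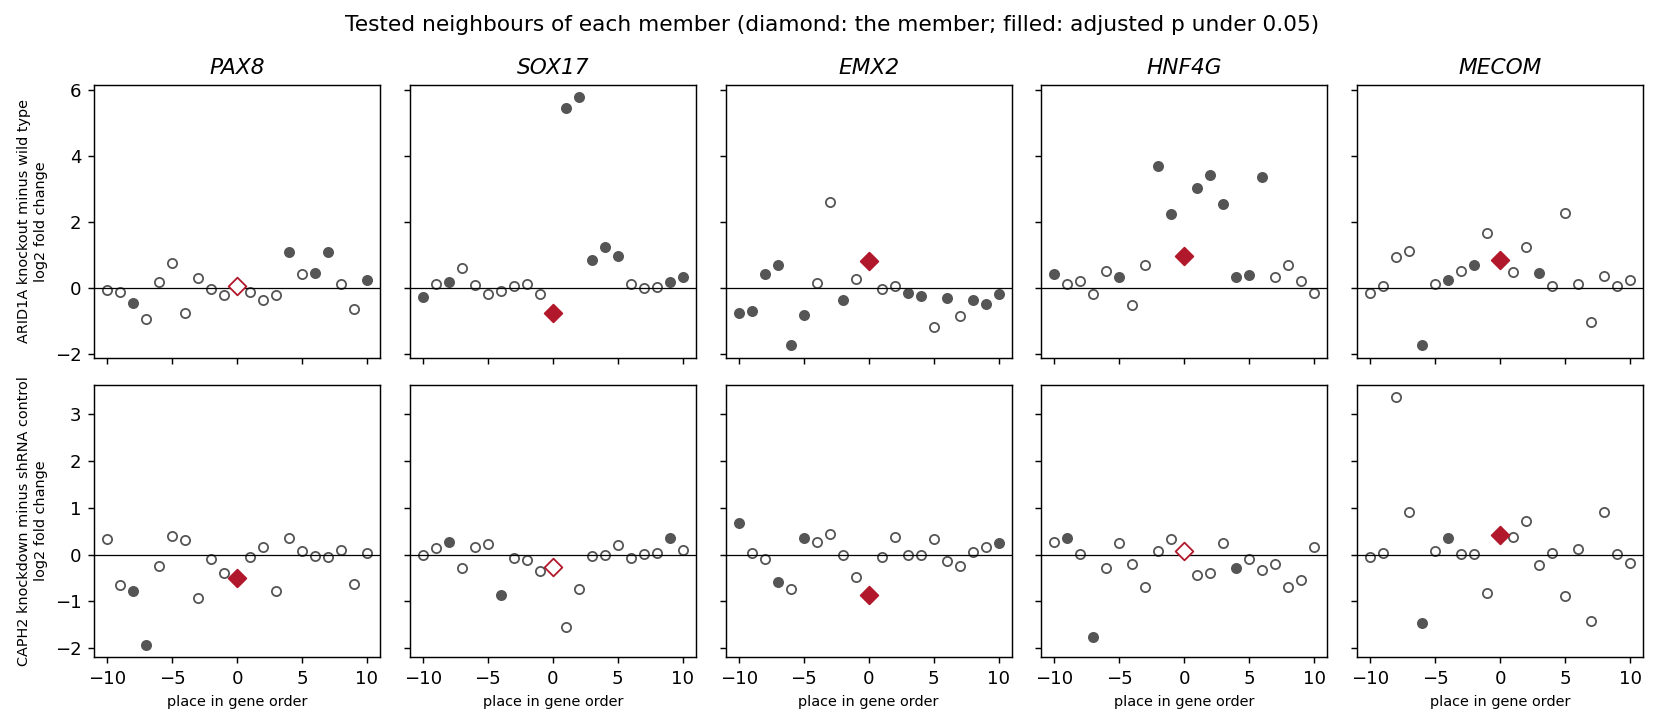
Each column is a transcription factor and each row a comparison; the x axis gives the place of 10 tested genes on each side in chromosome order, the y axis the log2 fold change, and filled symbols an adjusted p under 0.05. In the knockout LINC01109, next to HNF4G, lies at 3.01, RP1, next to SOX17, at 5.44, and EMX2 (diamond, 0.80) lies above neighbours with a median of −0.27.

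The antisense partner PAX8-AS1 averaged 1.38 ± 0.123 CPM in knockout, 1.60 ± 0.0967 in wild-type, 1.19 ± 0.364 in knockdown and 1.56 ± 0.198 CPM in control shRNA cells, and EMX2OS stayed at 0.255 to 0.536 CPM as group means. PAX8-AS1 (−0.22 in the knockout and −0.39 in the knockdown) and EMX2OS (0.26 and −0.47) did not pass in edgeR's test, with adjusted p of 0.65 and 0.481, and of 0.759 and 0.669. The strand setting of the counting is not given in the sources used here, so reads from PAX8 or EMX2 and from these partners may not be fully separated. Of 11 close paralogs 2 were tested, EMX1 and the immediate early gene EGR1, which did not pass in either perturbation (−0.25 and 0.26). PAX2, the paralog of PAX8 in the kidney ducts, was at 0 in all 8 libraries.

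By Pearson correlation of log2 CPM over the 8 libraries, the genes most like each factor were listed, as a description only, since the libraries fall into 4 groups. PAX8 was followed most closely by JMY (0.989), an actin nucleation factor, and MFSD2A (0.986), a lipid transporter. SOX17 was followed by HIBADH (0.994), an enzyme of valine breakdown, and GFRA1 (0.991), the GDNF co-receptor of the ureteric bud, which itself lies among the neighbours of EMX2. EMX2 was nearest to MFSD14A (0.972) and DUSP3 (0.968), and HNF4G to NDUFAF3 (0.973) and the long noncoding RNA SAMMSON (0.97). MECOM was followed by RNF182 (0.988) and COL4A1 (0.986), a basement membrane collagen that averaged 432.8 CPM in knockout and 206.8 in wild-type cells.

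Of genes reported as HNF4 targets, more were lower than higher in the knockout, where HNF4G itself was higher. Of 31 listed genes 14 were tested; 8 were lower and 2 higher than in wild type, beside 34.5% of all genes called, and the median log2 fold change was −2.35 (−2.06 with genes at 0 in a group set to their bound). RBP4, the retinol carrier, averaged 60.8 ± 1.49 CPM in knockout and 393.4 ± 23.8 CPM in wild-type cells (−2.69, edgeR adjusted p = 1.44e-10). SERPINA1, the gene of alpha-1 antitrypsin, averaged 1.94 ± 0.237 CPM in knockout and 18.3 ± 1.44 CPM in wild-type cells (−3.24, edgeR adjusted p = 2.23e-09). FGB, the fibrinogen beta chain, had 2 counts in the knockout and 76 in wild type, a wild-type to knockout ratio of 54.9 (95% counting interval 14.7 to 461.1). FGA, the alpha chain, was at 0 in the knockout and at least 7.22-fold lower, and AGT (angiotensinogen), also at 0, was at least 3.85-fold lower, both bounds taken with 3 counts for the 2 knockout libraries together.

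The 2 members of the list that rose were AMBP, which encodes alpha-1-microglobulin and bikunin (19.8 ± 0.0401 CPM in knockout and 5.20 ± 1.47 CPM in wild-type cells; 1.94, edgeR adjusted p = 8.24e-06), and APOM, an apolipoprotein of kidney and liver (0.46, edgeR adjusted p = 0.00494). In the knockdown 3 of the 14 were higher and 2 lower, beside 15.8% of all genes called, with a median of 0.24. In this and the other lists a gene near 0 in one group could pass the filter through the group where it was high, and such a gene had to differ. SERPINA1 rose to 115.6 ± 2.09 CPM in knockdown cells, against 35.3 ± 0.780 CPM in control shRNA cells (1.71, edgeR adjusted p = 3.41e-08). SLC2A2, the glucose transporter GLUT2, was lower in both perturbations (−2.52 in the knockout and −1.92 in the knockdown, edgeR adjusted p = 6.54e-06 and 0.00102). The FGA call was lost without wild-type replicate 2 (edgeR adjusted p = 0.0581), and the AGT call in 7 alternative settings, among them each fit without 1 knockout or wild-type library (edgeR adjusted p = 0.0971 to 0.167). The rise of VIL1, a brush border protein, in the knockdown (2.15) was lost in 10, with values of 1.47 without control shRNA replicate 2 and 3.35 without replicate 1.

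**Figure D4:**
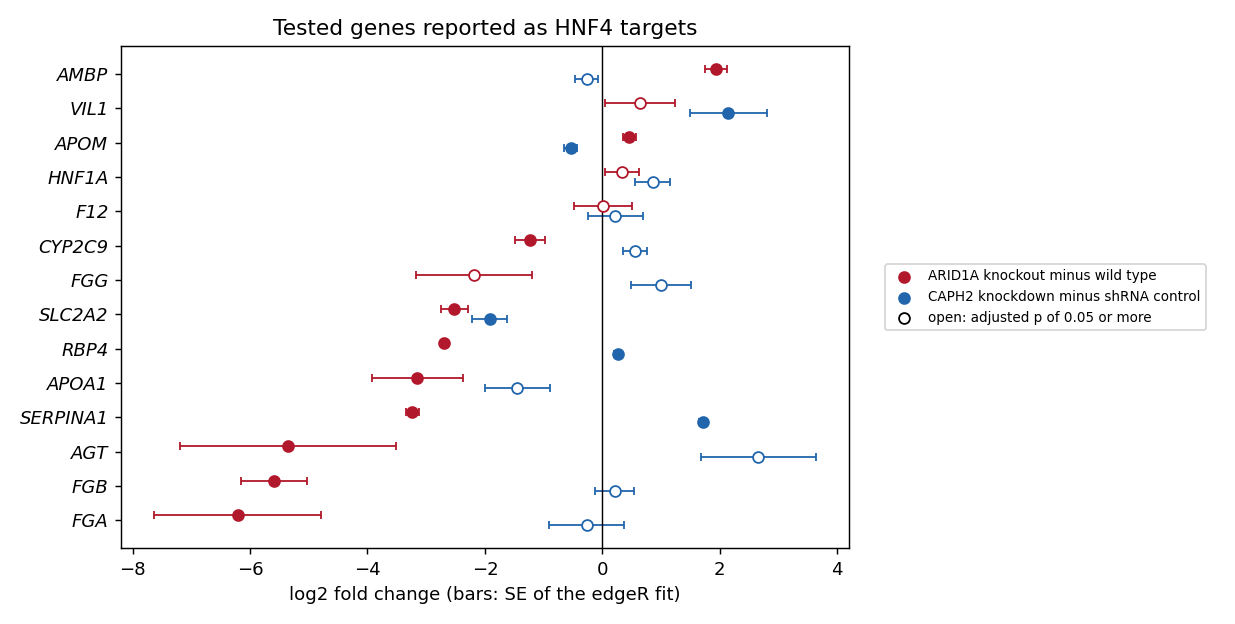
Rows are the 14 tested genes reported as HNF4 targets, the x axis gives the log2 fold change with the SE of the edgeR fit, and filled symbols have an adjusted p under 0.05. SERPINA1 lies at −3.24 in the knockout and 1.71 in the knockdown; the fitted values of FGA and AGT, at 0 counts in the knockout, depend on the prior count and are no bound.

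Of partners of the HNF4 receptors in the hepatic factor network, 12 of 21 were tested. In the knockout 4 were called lower and 1 higher, with a median of −0.18. These 5 of 12 are near the 34.5% of all genes called in that comparison. GATA6, a zinc finger factor of endoderm, averaged 0.620 ± 0.286 CPM in knockout and 1.81 ± 0.360 CPM in wild-type cells (−1.54, edgeR adjusted p = 0.0239), and RXRA, a partner of many nuclear receptors, was lower by −0.62 (edgeR adjusted p = 0.00243). The GATA6 call was lost without wild-type replicate 1 (−1.33) or knockout replicate 2 (−1.13). The pioneer factor FOXA1 was higher (1.09, edgeR adjusted p = 0.042), a call lost in 11 of 14 alternatives, among them every fit without 1 library other than the one without wild-type replicate 2 (0.81 without wild-type replicate 1). In the knockdown 3 were higher and 0 lower, beside 15.8% of all genes called, and 1 of the 3, CEBPA, passed the filter only through the knockdown libraries. PPARGC1A, the coactivator of energy metabolism, averaged 6.55 ± 0.414 CPM in knockdown and 0.803 ± 0.128 CPM in control shRNA cells (3.02, edgeR adjusted p = 0.000835), and CEBPA had 36 counts in the knockdown and 0 in control shRNA cells and in the other 4 libraries (at least 13.0-fold higher), a call lost without either control shRNA library (edgeR adjusted p = 0.114 in both fits). NR2F2, also known as COUP-TFII, which binds HNF4-like sites, was lower in the knockout (−0.38) and higher in the knockdown (0.75).

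Of other Müllerian, renal and gonadal factors, 15 of 32 were tested and 10 had 0 counts in all 8 libraries. In the knockout 4 were higher and 2 lower, with a median of 0.06, and in the knockdown 1 was higher and 1 lower, with a median of 0.04. These 6 and 2 of 15 are near the 34.5% and 15.8% of all genes called. LHX9, a LIM homeodomain factor of the gonad, averaged 3.38 ± 0.0211 CPM in knockout and 0.664 ± 0.171 CPM in wild-type cells (2.35, edgeR adjusted p = 0.00436). GATA3, a factor of the nephric duct, averaged 2.25 ± 0.0769 CPM in knockout and 1.11 ± 0.185 CPM in wild-type cells (1.02, edgeR adjusted p = 0.0158). SALL1, a kidney progenitor zinc finger factor, was lower in both perturbations (−0.56 and −0.30, edgeR adjusted p = 0.000295 and 0.0272). The GATA3 call was lost without wild-type replicate 2 (0.86) or either knockout library (0.99 and 1.06), and the knockdown call of SALL1 without either control shRNA library (−0.36 and −0.24) or knockdown replicate 2 (−0.23).

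Among genes reported as PAX8 targets 3 of 9 were tested. In the knockout 1 was called higher and 1 lower, beside 34.5% of all genes called, and the median was −0.31. E2F1 did not pass there (−0.31, edgeR adjusted p = 0.111). TG, the thyroglobulin gene, averaged 9.81 ± 0.978 CPM in knockout and 0.639 ± 0.0323 CPM in wild-type cells (3.94, edgeR adjusted p = 2.32e-07), whereas BCL2 was lower (−0.36, edgeR adjusted p = 0.00701), a call lost without knockout replicate 2 (−0.28). In the knockdown, where PAX8 was lower, TG (0.41), BCL2 (−0.18) and E2F1 (−0.10) did not pass (edgeR adjusted p = 0.556, 0.146 and 0.697), and their median was −0.10. TG was at 0.431 ± 0.0294 CPM in knockdown and 0.325 ± 0.0652 CPM in control shRNA cells.

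Genes reported as WT1 targets were called in both directions in a line with almost no WT1 transcript. Of 16 listed 10 were tested, and 4 were higher and 4 lower in the knockout, beside 34.5% of all genes called. The median was −0.31. AREG, the growth factor amphiregulin, averaged 332.0 ± 8.24 CPM in knockout and 136.4 ± 2.97 CPM in wild-type cells (1.28, edgeR adjusted p = 1.14e-08). SPRY1, a brake on receptor tyrosine kinase signalling, rose by 2.00, and IGF1R, the receptor of insulin-like growth factors, fell (−2.11, edgeR adjusted p = 2.83e-07). In the knockdown 1 was higher (STIM1, a calcium sensor) and 2 lower (AREG and IGF1R), beside 15.8% of all genes called. The median was −0.12. The knockdown call of IGF1R (−0.41) was lost without either control shRNA library (−0.38 and −0.45) or knockdown replicate 2 (−0.32), and that of STIM1 (0.35) without control shRNA replicate 1 (0.32) or knockdown replicate 2 (0.31).

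Cofactors of the LIM homeodomain, SOX, WT1 and MECOM proteins (18 of 19 tested) were called higher for 3 and lower for 5 in the knockout. The median was −0.14, and these calls are near the 34.5% of all genes called in that comparison. BASP1, a corepressor of WT1, had 1 count in the knockout and 61 in wild type, a wild-type to knockout ratio of 88.1 (95% counting interval 15.2 to 3534). CTBP2, a corepressor that binds MECOM, was lower by −0.69 (edgeR adjusted p = 1.87e-05). CTNNB1, or beta-catenin, which SOX17 binds, was higher at 597.3 ± 17.8 CPM in knockout and 379.6 ± 13.9 CPM in wild-type cells (0.65, edgeR adjusted p = 1.82e-06). In the knockdown 3 of 18 were lower and 0 higher, near the 15.8% of all genes called: EHMT2, a histone methyltransferase reported to bind MECOM (−0.38), PAXIP1, a PAX-interacting protein (−0.35), and NCOR1, a nuclear receptor corepressor (−0.24). Without control shRNA replicate 1 all 3 calls were lost (−0.34, −0.32 and −0.24), as was that of PAXIP1 without knockdown replicate 1 (−0.28) and that of NCOR1 without any 1 of the 4 libraries compared (−0.25 to −0.24).

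Signalling genes of the ducts were called in both directions. In the knockout 6 of 13 tested were higher and 3 lower (23 listed, median 0.41), beside 34.5% of all genes called. In the knockdown 1 was higher and 1 lower (median −0.10), near the 15.8% of all genes called. WNT7A, whose product patterns the Müllerian duct, averaged 8.38 ± 0.0348 CPM in knockout and 20.5 ± 0.191 CPM in wild-type cells (−1.29, edgeR adjusted p = 9.37e-07). WNT7B, which acts in the renal collecting duct, averaged 2.80 ± 0.0767 CPM in knockout and 0.370 ± 0.0618 CPM in wild-type cells (2.91, edgeR adjusted p = 0.000172). LGR5, a receptor for R-spondins, was the gene called higher in the knockdown, with 34 counts against 2 in control shRNA cells (ratio 18.5, 95% counting interval 4.73 to 158.6), and it was higher in the knockout too (2.74, edgeR adjusted p = 0.0267). Its knockout call was lost without any 1 of the knockout, wild-type or knockdown libraries (2.28 to 3.08), and its knockdown call without control shRNA replicate 2 (3.05) or either knockdown library (4.19 and 3.83). NPNT, a matrix ligand of the ureteric bud, was higher in the knockout (1.01) and lower in the knockdown (−0.70).

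Other SOX genes gave 2 rises and 2 falls among 6 tested in the knockout, beside 34.5% of all genes called. In the knockdown they gave 2 falls, beside 15.8% of all genes called. SOX2, a stem cell factor, averaged 9.28 ± 0.609 CPM in knockout and 1.24 ± 0.00605 CPM in wild-type cells (2.91, edgeR adjusted p = 1.79e-06), so that its CPM in the knockout was close to that of SOX17. In knockdown and control shRNA cells SOX2 averaged 0.445 ± 0.128 and 1.27 ± 0.219 CPM (−1.51, edgeR adjusted p = 0.00427). SOX4 was likewise higher in the knockout (0.99) and lower in the knockdown (−0.58), while SOX13 was lower in the knockout (−1.36, edgeR adjusted p = 0.000304).

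Markers of other cell types were summed too, and for proximal tubule and hepatocyte the sums in the knockout were in the range of SOX17, EMX2 and HNF4G there. Proximal tubule markers summed to 9.15 to 9.82 CPM in knockout and 0.703 to 1.52 in wild-type libraries. In knockdown libraries they summed to 3.81 to 4.29 and in control shRNA libraries to 1.62 to 1.76 CPM, with SLC22A6 at 0. Of the 5 markers 2 were tested. Of these 1, AQP1 (a water channel), was called higher in each perturbation, beside 34.5% and 15.8% of all genes called. AQP1 averaged 7.49 ± 0.236 CPM in knockout cells and made up most of the sum there. Hepatocyte markers summed to 14.0 to 14.3 CPM in knockout, 8.97 to 9.52 in wild-type, 17.1 to 19.0 in knockdown and 17.7 to 19.4 CPM in control shRNA libraries, nearly all of it CPS1, a urea cycle enzyme called higher in the knockout (0.61, edgeR adjusted p = 0.000843), with TAT at 0. Mesothelial markers summed to 4.23 to 5.04 CPM in knockout, 1.16 to 1.48 in wild-type, at most 1.06 in knockdown and 1.84 to 1.92 CPM in control shRNA libraries, with MSLN at 0. Among them BNC1 averaged 2.67 ± 0.488 CPM in knockout and 0.0388 ± 0.00362 CPM in wild-type cells (edgeR adjusted p = 0.000168), and LRRN4 was called lower in the knockdown (−0.97, edgeR adjusted p = 0.0485). Leukocyte markers summed to 2.06 to 2.93 CPM in knockout, 0.413 to 0.435 in wild-type, 0.757 to 1.13 in knockdown and 0.217 to 0.419 CPM in control shRNA libraries, with CD3E at 0. PTPRC, the gene of CD45, averaged 2.12 ± 0.186 CPM in knockout and 0.0207 ± 0.0292 CPM in wild-type cells (edgeR adjusted p = 0.000238), whereas CD14 was called lower, with 1 count in knockout and 21 in wild-type cells. Fibroblast markers summed to 0.992 to 1.12 CPM in knockout, 0.435 to 0.455 in wild-type, 0.284 to 0.29 in knockdown and 0.419 to 0.464 CPM in control shRNA libraries, with COL1A2 and COL3A1 at 0 and LUM called higher in the knockout (40 counts in knockout and 0 in the 6 other libraries). Endothelial markers summed to 0.157 to 0.219 CPM in knockout, 0.761 to 1.03 in wild-type, 0.504 to 0.677 in knockdown and 0.531 to 0.712 CPM in control shRNA libraries, with KDR at 0 and TEK called lower in the knockout (−2.34, edgeR adjusted p = 0.00773). BNC1, PTPRC and LUM passed the filter on low counts only through the knockout libraries, so their calls as higher there were to be foreseen. The part of the marker transcripts in the changes of SOX17, EMX2, HNF4G and MECOM was not tested. In bulk RNA fewer cells of a type and less RNA per cell cannot be told apart.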

How the data were processed

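RNA-seq of 8 RMG1 libraries was used, in 4 groups of 2 taken from the labels. The authors deposited expected counts per Ensembl gene, unpooled, in whole numbers; per the submitters' processing notes, Bowtie2 and RSEM 1.2.12 were used with hg19, and the annotation is not given in the sources used here. RSEM shares reads among similar genes, so paralogs and overlapping genes are uncertain. Names, gene order and transcript length came from GENCODE 29 and a table of gene IDs (52301 of 57736 IDs named); 12.5% to 16.1% of counts fell on IDs without a name. No hg19 coordinates are given.

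Genes were filtered with filterByExpr, scaled by TMM and tested with edgeR 4.0.16 (R 4.3.3; quasi-likelihood test, 1 fit of 8 libraries, 4 residual degrees of freedom, Benjamini-Hochberg over 16657 genes), after the code was tested on simulated data. One count was worth 0.0261 to 0.0413 CPM. Floors are 3 counts over a group, and 95% intervals of ratios are exact; both cover counting error only, since reads are not independent molecules. DESeq2 1.42.0, other scalings, no filter, a replicate block, fits of 4 libraries and leaving out libraries were alternatives.

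The members and lists were chosen with earlier results of these data known. The rule for named genes took all members, both targeted genes, each member's nearest tested neighbours, the 2 most correlated genes with a mean of at least 1 CPM and, per list and comparison, the 3 called genes with the largest change, plus paralogs, antisense partners and cofactors; XKR4, RBP4, AMBP, APOM, SOX4 and other genes beyond that were named after their values were seen. Of 220 list genes 6 had no ID matched and were not analysed here.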

Additional observations from a re-analysis of the deposited data

How the results depend on the processing

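Across 988 recomputed values, 905 kept their direction and side of the threshold, 70 lost the threshold, 4 gained it, 6 counts of genes moved by over 1.5 times and 3 values changed sign. The knockout calls of SOX17, EMX2, HNF4G and MECOM kept direction and call in all 15 alternatives. PAX8 in the knockout turned to −0.26 with control shRNA cells as the baseline, which was added after seeing the data. HNF4G in the knockdown, not called, ranged from −0.089 (without control shRNA replicate 2) to 0.27 on leaving out 1 library, and was also below 0 without knockdown replicate 2. SOX17 passed for the difference between perturbations with no filter and without wild-type replicate 1, and for control shRNA against wild type with no filter and without wild-type replicate 2. Leaving out 1 library gave 1360 to 3494 genes called in the knockdown (2639 with all 8; lowest without control shRNA replicate 1) and 1553 to 3410 for control shRNA against wild type (3205 with all 8; lowest without control shRNA replicate 1); fewer libraries are in those fits. The replicate block gave 5500 genes in the knockout and 2483 in the knockdown, against 5751 and 2639 without it, and changed no call of a member. The calls of FOXA1 and AGT in the knockout and VIL1 in the knockdown were lost with it. Same-numbered libraries deviated with correlations of 0.0296 (knockout and wild type) and −0.0154 (knockdown and control shRNA), so the numbers are not taken to pair them. Depth limits HNF4A and WT1, which stayed under the filter.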
